A study of Homo sapiens with 9 samples.

Results

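Caspases are cysteine proteases that cut their substrates after aspartate, and the 8 genes described here are 7 of them together with APAF1. They were taken as the rows of the deposited table whose symbol equals CASP1, CASP4, CASP2, CASP8, CASP9, CASP10, CASP6 or APAF1. All 8 were found, among 22295 entries, of which 19932 are gene symbols and 2363 are loci assembled by the study from its reads.

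The study measured RNA in U251, an established human glioblastoma cell line, after infection with lentiviruses that express a short hairpin RNA, and asked how the transcriptome differs once PTBP1 is knocked down. There were 9 libraries of total RNA, 3 in each of 3 groups. The group sh-Luci-3d carried a control hairpin against luciferase for 3 days. The group sh-Ptbp1-3d carried a hairpin against PTBP1, an RNA-binding protein that represses neuronal splicing, for 3 days, and the group sh-Ptbp1-7d carried it for 7 days. Cells of every group were infected with lentivirus and, by the methods of the study, were moved from 2 days after infection to a neuronal induction medium of DMEM/F12 and neurobasal with N2, B27, forskolin and dorsomorphin. The knockdown rested on 1 hairpin sequence in 1 cell line. No sh-Luci library of day 7 was analysed here, so in each comparison with sh-Ptbp1-7d the knockdown, the additional days and the time in the medium cannot be told apart.

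Caspases are made as inactive precursors and act in a chain. Initiator caspases are activated on platforms: CASP8 and CASP10 on death receptors through FADD, CASP9 on the apoptosome that APAF1 forms with cytochrome c, and CASP2 on the PIDDosome. Executioner caspases, CASP6 among them, then cut cellular proteins, while the inflammatory caspases CASP1 and CASP4 cut gasdermin D and, for CASP1, the precursors of interleukins within the inflammasome, a complex best known from macrophages.

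Values were FPKM, fragments counted per kilobase of transcript and divided by the library's total of mapped fragments, so levels can be compared between genes. Tests used limma on log2(FPKM + 0.1), in a single model of the 9 libraries, for the 15551 features whose mean reached 0.1 FPKM, with Benjamini-Hochberg adjustment over those features. A gene was called at a fold change above 2 with an adjusted p below 0.05 when sh-Ptbp1-3d was compared with sh-Luci-3d, or below 0.01 in the comparisons of sh-Ptbp1-7d with either group of day 3. Genes past the adjusted p alone are given as well. The 3 comparisons share libraries and are not independent. The labels do not say whether replicates were separate cultures, so p-values measure the spread between these samples only. As PTBP1 mRNA checks the labels, its level was 111, 112 and 124 FPKM in sh-Luci-3d, 66.2, 64.4 and 61.0 in sh-Ptbp1-3d and 49.7, 50.7 and 51.0 in sh-Ptbp1-7d. PTBP1 thus averaged 55.2% ± 2.31 (SD, n = 3) of the control in sh-Ptbp1-3d and 43.6% ± 0.558 (SD, n = 3) in sh-Ptbp1-7d. The first principal component of the libraries held 62.1% of the variance and separated sh-Ptbp1-7d from the other 6. The sh-Ptbp1-3d replicate 3 library alone held STMN2 at 11.5 FPKM and DCX at 2.14 FPKM, neuronal transcripts that were at or below 0.0346 FPKM in every other library. The sh-Luci-3d replicate 3 library lay among the sh-Ptbp1-3d libraries on the second component (8.14% of the variance), and without it 59 of all features were called between the groups of day 3 in place of 2. Some results that change without either library are given with the value that remained. Others are given only as a count of alternatives or as a range. The astroglial markers GFAP and S100B of this line were at or below 1.15 FPKM in all libraries, while VIM was at 1094 FPKM or more.

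The promoters of CASP4, CASP6 and CASP8 are shown because the first rose, the second fell and the third holds both interferon-pathway motifs searched. RefSeq entries on GRCh38.p14 matched 6 of the 8 genes with 10 start sites. CASP1 and CASP10 had no match. Each line runs 5′ to 3′ on the strand of the gene, from 250 bases before the start site through the first 10 bases after it. Capitals mark matches, on either strand, to the core of an interferon-stimulated response element, to TTCNNNGAA (the core of a STAT site) or to the GC box GGGCGG. The fourth motif searched, the TATA box TATAAA, is absent from these lines, and in them no match overlaps one of another motif.
CASP4, minus strand, chr11:104968565-104968824: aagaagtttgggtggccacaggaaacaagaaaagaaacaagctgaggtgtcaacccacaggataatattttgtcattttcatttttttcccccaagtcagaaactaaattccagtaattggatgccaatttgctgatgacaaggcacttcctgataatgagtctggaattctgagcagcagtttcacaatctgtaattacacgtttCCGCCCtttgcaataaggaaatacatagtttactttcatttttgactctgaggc
CASP6, minus strand, chr4:109703436-109703695: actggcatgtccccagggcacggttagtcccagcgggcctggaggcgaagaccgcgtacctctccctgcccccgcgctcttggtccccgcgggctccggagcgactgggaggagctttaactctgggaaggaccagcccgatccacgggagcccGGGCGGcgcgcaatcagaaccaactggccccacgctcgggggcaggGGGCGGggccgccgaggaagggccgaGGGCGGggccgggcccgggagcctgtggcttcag
CASP8, plus strand, chr2:201233213-201233472: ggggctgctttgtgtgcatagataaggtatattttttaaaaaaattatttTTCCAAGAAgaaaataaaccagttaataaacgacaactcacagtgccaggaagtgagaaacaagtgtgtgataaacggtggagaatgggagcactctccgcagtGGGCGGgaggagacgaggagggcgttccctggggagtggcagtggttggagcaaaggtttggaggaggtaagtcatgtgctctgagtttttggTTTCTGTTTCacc
Among 35116 RefSeq promoters of 300 bases (250 before and 50 after the start), 3.57% held the interferon element core, 7.66% held the STAT site core, 45% held GGGCGG and 11.5% held TATAAA. In the 300 bases of this CASP8 entry, the first motif began at position -3 and the second at -200. Neither was among the letters of the CASP4, CASP6, CASP2, CASP9 or APAF1 entries or of the other 2 CASP8 entries. The CASP4 entry was 39.7% G and C, against a median of 58.7% over all promoters, and the CASP6 entry was 72% with 3 GC boxes. The other 7 entries held from 0 to 9 GC boxes. These matches describe the sequence and were not tested as sites.

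The inflammatory caspases CASP1 and CASP4 were the members called at day 7, both higher. Both lie on the minus strand of chromosome 11 (GRCh38), CASP1 at chr11:105025443-105035250 and CASP4 at chr11:104942866-104969436, with CASP5 between them. CASP1, which matures interleukin 1 beta and interleukin 18, had 0.788, 1.46 and 0.741 FPKM in sh-Luci-3d, against 1.03, 0.703 and 1.05 FPKM in sh-Ptbp1-3d and 26.2, 28.7 and 27.5 FPKM in sh-Ptbp1-7d. The groups of day 3 overlapped, and every sh-Ptbp1-7d library was far above all of them. On the log2(FPKM + 0.1) scale CASP1 rose by 4.76 from sh-Ptbp1-3d to sh-Ptbp1-7d (SE 0.229, limma adjusted p = 7.78e-08), a 27.2-fold change with a 95% confidence interval of 19.2 to 38.6. Against sh-Luci-3d the rise was 4.71 (SE 0.229, limma adjusted p = 8.32e-08). Ordered from the largest rise, CASP1 stood at rank 16 of 15551 features in the first of these comparisons and at rank 19 in the second.

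CASP4, which senses cytosolic lipopolysaccharide, started from a much higher level. It had 16.1, 18.3 and 15.3 FPKM in sh-Luci-3d, against 13.3, 15.6 and 15.2 FPKM in sh-Ptbp1-3d and 34.1, 32.1 and 38.2 FPKM in sh-Ptbp1-7d. Again the day 3 groups overlapped and the sh-Ptbp1-7d libraries lay above them without overlap. The log2 fold change was 1.24 (SE 0.102, limma adjusted p = 3.78e-06) against sh-Ptbp1-3d and 1.07 (SE 0.102, limma adjusted p = 1.08e-05) against sh-Luci-3d. The latter is close to the 2-fold threshold, and its 95% confidence interval of 0.84 to 1.29 spans it. It was 0.99 with median-ratio scaling and 0.998 without sh-Ptbp1-7d replicate 3, both just under the threshold. As CASP1 rose more than CASP4, the CASP1 level was 5.90% ± 1.78 (SD, n = 3) of the CASP4 level in sh-Luci-3d, 6.39% ± 1.68 in sh-Ptbp1-3d and 79.5% ± 9.04 in sh-Ptbp1-7d.

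In the comparison of sh-Ptbp1-7d with sh-Ptbp1-3d, 2 of the 8 genes were called, both higher, where 8.31% of all features were called higher and 14.2% in either direction. Past the adjusted p alone were 3 of 8, beside 35.8% of all features. The median log2 fold change of the 8 was 0.45, beside 0.092 over all features. CASP10 is counted among the 8, although it reached the minimum mean only through sh-Ptbp1-7d. Without CASP10 the middle value was that of CASP8, 0.39. Against sh-Luci-3d the called genes were again 2 of 8, beside 14.6% of all features in either direction, and 3 of 8 passed the adjusted p alone, beside 35.6%. The libraries did not overlap for 5 of the 8, CASP1, CASP4 and APAF1 being higher and CASP6 and CASP2 lower, beside 55.9% of all features. The median of the 8 was then 0.38, beside 0.099, and without CASP10 the middle value was that of CASP8, 0.27. Scaling moved the median over all features: between the PTBP1 groups it was 0.20 with TPM and -0.0087 with quantile normalization. In the comparison with sh-Luci-3d, 61.1% of the called features were higher, and 49.3% with quantile normalization. CASP1 and CASP4 were higher and CASP6 lower in both comparisons under every alternative run.

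**Figure D1:**
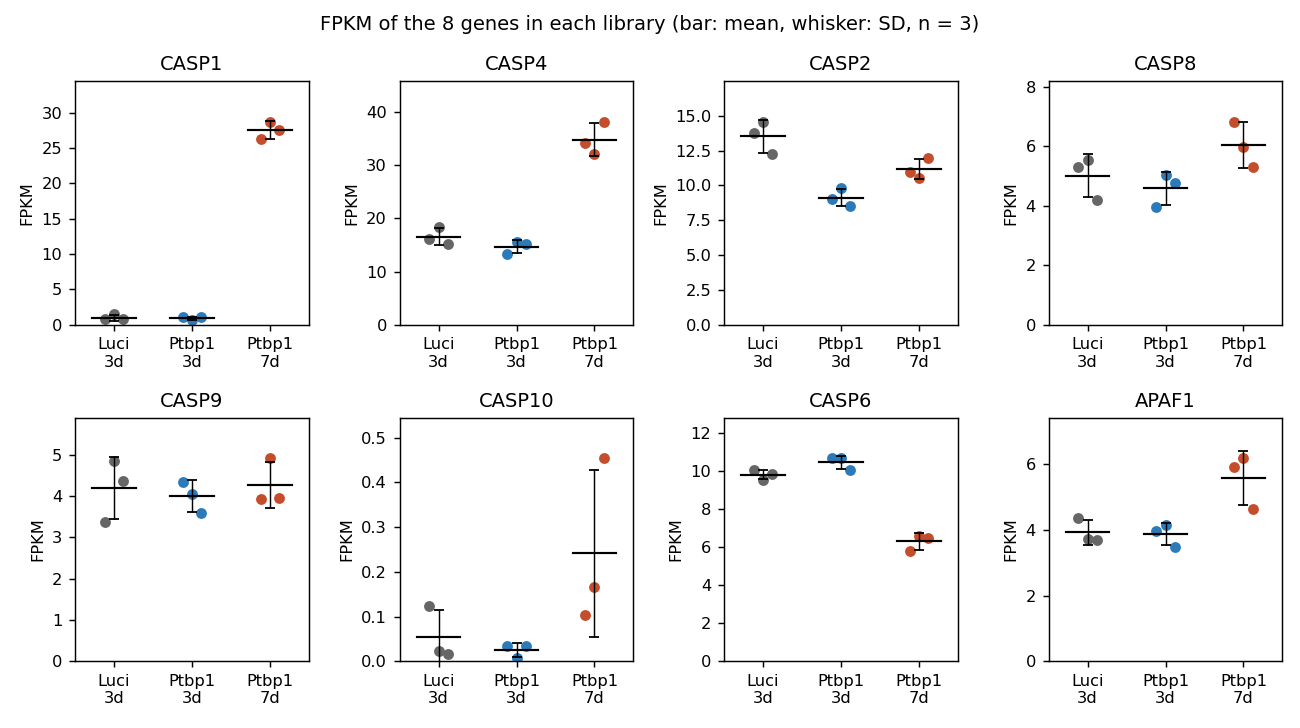
FPKM (y axis, linear from 0, a scale of its own in each panel) of the 8 genes in the 9 libraries, with points for libraries, bars for group means and whiskers for the SD (n = 3). CASP1 lies between 26.2 and 28.7 FPKM in sh-Ptbp1-7d and at or below 1.46 FPKM elsewhere, CASP4 is above 32 FPKM at day 7 only, and CASP6 is lower at day 7 than in every library of day 3.

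CASP6 went the other way. This executioner caspase, which cuts lamin A, lies at chr4:109688622-109703583 on the minus strand (GRCh38). Its level was 10.1, 9.56 and 9.85 FPKM in sh-Luci-3d, against 10.7, 10.7 and 10.1 FPKM in sh-Ptbp1-3d and 5.81, 6.61 and 6.50 FPKM in sh-Ptbp1-7d. All sh-Ptbp1-7d libraries were below all 6 others. CASP6 fell by 0.72 on the log2 scale against sh-Ptbp1-3d (SE 0.0875, limma adjusted p = 5.93e-05) and by 0.63 against sh-Luci-3d (SE 0.0875, limma adjusted p = 0.000152). Both falls passed the adjusted p and were smaller than 2-fold, with 95% confidence intervals of -0.92 to -0.53 and -0.83 to -0.44. A stretch of 105 exonic bases of CASP6 (5.4% of them) overlaps exons of MCUB on the opposite strand. MCUB, whose log2 fold change against sh-Ptbp1-3d was 0.32 (limma adjusted p = 0.0107), did not pass the threshold. Whether the counting used strand is not given in the sources used here.

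CASP2 was the member with the clearest difference between the groups of day 3, although it was not called. It encodes an initiator caspase linked to DNA damage and to abnormal centrosome number, at chr7:143288215-143307696 on the plus strand (GRCh38). Its level was 13.8, 14.6 and 12.3 FPKM in sh-Luci-3d, against 9.05, 9.79 and 8.54 FPKM in sh-Ptbp1-3d and 10.96, 10.55 and 11.99 FPKM in sh-Ptbp1-7d. The 3 groups did not overlap, with sh-Luci-3d highest and sh-Ptbp1-3d lowest. The log2 difference of sh-Ptbp1-3d from sh-Luci-3d was -0.56 (SE 0.0982, 95% confidence interval -0.78 to -0.34), and its limma adjusted p of 0.174 missed the threshold. Without sh-Luci-3d replicate 3, the library that lay among sh-Ptbp1-3d on the second component, the difference was -0.63 and the limma adjusted p was 0.00876. From sh-Ptbp1-3d to sh-Ptbp1-7d CASP2 differed by 0.29 (limma adjusted p = 0.0312), which also missed the threshold of that comparison. Of 20 alternatives it passed under 1, TPM in place of FPKM, at 0.39 and an adjusted p of 0.00705. The sh-Ptbp1-7d libraries stayed below sh-Luci-3d, by a log2 difference of -0.27 (limma adjusted p = 0.039), which passed under 1 of 20 alternatives, without sh-Luci-3d replicate 3 (limma adjusted p = 0.00904).

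Between the groups of day 3, 0 of the 8 genes were called by limma, where 0.0129% of all features (2) were called, and 0 passed the adjusted p alone, beside 0.0322%. The study reported more genes for this pair at the same thresholds, with a test that its methods do not name. At an unadjusted p under 0.05 there was 1 of 8, CASP2, beside 1126 of the 15551 features. It was also the only member whose groups did not overlap, beside 10.8% of all features. The other 7 members had log2 differences from -0.25 for CASP10 to 0.090 for CASP6. Their 95% confidence intervals contained 0 and, with the exception of CASP10, lay within -0.56 and 0.45.

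CASP8, the initiator of death receptor signalling, lies at chr2:201233443-201287711 on the plus strand (GRCh38), beside CASP10 and CFLAR. It had 5.31, 5.53 and 4.18 FPKM in sh-Luci-3d, against 3.97, 5.03 and 4.75 FPKM in sh-Ptbp1-3d and 6.83, 5.98 and 5.30 FPKM in sh-Ptbp1-7d. The sh-Ptbp1-7d libraries lay above those of sh-Ptbp1-3d but overlapped sh-Luci-3d. The log2 difference was 0.39 (SE 0.146, limma adjusted p = 0.0465) against sh-Ptbp1-3d and 0.27 (limma adjusted p = 0.152) against sh-Luci-3d, and neither passed. The 95% confidence interval of the former was 0.065 to 0.71.

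CASP10, a close relative of CASP8, was barely detected. It lies at chr2:201182881-201229406 on the plus strand (GRCh38). Its level was 0.124, 0.0236 and 0.0170 FPKM in sh-Luci-3d, against 0.0350, 0.00665 and 0.0335 FPKM in sh-Ptbp1-3d and 0.103, 0.167 and 0.453 FPKM in sh-Ptbp1-7d. The groups sh-Ptbp1-3d and sh-Ptbp1-7d did not overlap, and the sh-Luci-3d replicate 1 library lay within the range of sh-Ptbp1-7d. CASP10 reached the minimum mean of 0.1 FPKM only through sh-Ptbp1-7d, so its difference is a description only. The log2 difference between the PTBP1 groups was 1.32 (SE 0.455, limma adjusted p = 0.0322) and did not pass. It was 0.27 with a pseudocount of 1 and 2.72 with one of 0.01. Without sh-Ptbp1-7d replicate 2 or 3 the gene was below the minimum and was not tested.

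CASP9 and APAF1 work together in the apoptosome, and their levels were close at day 3. CASP9 lies at chr1:15490832-15526534 on the minus strand and APAF1 at chr12:98645141-98735433 on the plus strand (GRCh38). CASP9 had 3.36, 4.85 and 4.36 FPKM in sh-Luci-3d, against 4.35, 4.05 and 3.58 FPKM in sh-Ptbp1-3d and 3.93, 4.91 and 3.96 FPKM in sh-Ptbp1-7d. These groups overlapped throughout. A stretch of 106 exonic bases of CASP9 overlaps exons of CELA2B on the opposite strand. Its log2 differences were -0.057, 0.091 and 0.034 in the 3 comparisons, and the 95% confidence interval for sh-Ptbp1-7d compared with sh-Ptbp1-3d was -0.25 to 0.43. CASP9 was the only one of the 8 genes whose PTBP1 groups overlapped, where 62.3% of all features did not overlap. CASP10, among those without overlap, was tested only through its sh-Ptbp1-7d level.

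APAF1, the scaffold that recruits CASP9, had 4.37, 3.72 and 3.69 FPKM in sh-Luci-3d, against 3.97, 4.17 and 3.49 FPKM in sh-Ptbp1-3d and 5.92, 6.18 and 4.64 FPKM in sh-Ptbp1-7d. Each sh-Ptbp1-7d library was above each library of day 3. The log2 difference was 0.51 against sh-Ptbp1-3d (SE 0.137, limma adjusted p = 0.0104) and 0.49 against sh-Luci-3d (SE 0.137, limma adjusted p = 0.0124), both just short of the threshold of 0.01. They passed under 6 and 3 of 20 alternatives. With TPM the adjusted p values were 0.00469 and 0.00683, and without sh-Ptbp1-7d replicate 3 they were 0.00326 and 0.00373. In position, 750 of its exonic bases (9.48%) overlap exons of ANKS1B on the opposite strand. ANKS1B had means of 1.71, 1.52 and 7.42 FPKM in the 3 groups and rose by 2.21 on the log2 scale between the PTBP1 groups (limma adjusted p = 3.83e-07). The part of these reads in the APAF1 value was not tested. As a percentage of the CASP9 level, APAF1 was at 97.1 ± 28.7 (SD, n = 3) in sh-Luci-3d, 97.3 ± 5.72 in sh-Ptbp1-3d and 131 ± 17.4 in sh-Ptbp1-7d.

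**Figure D2:**
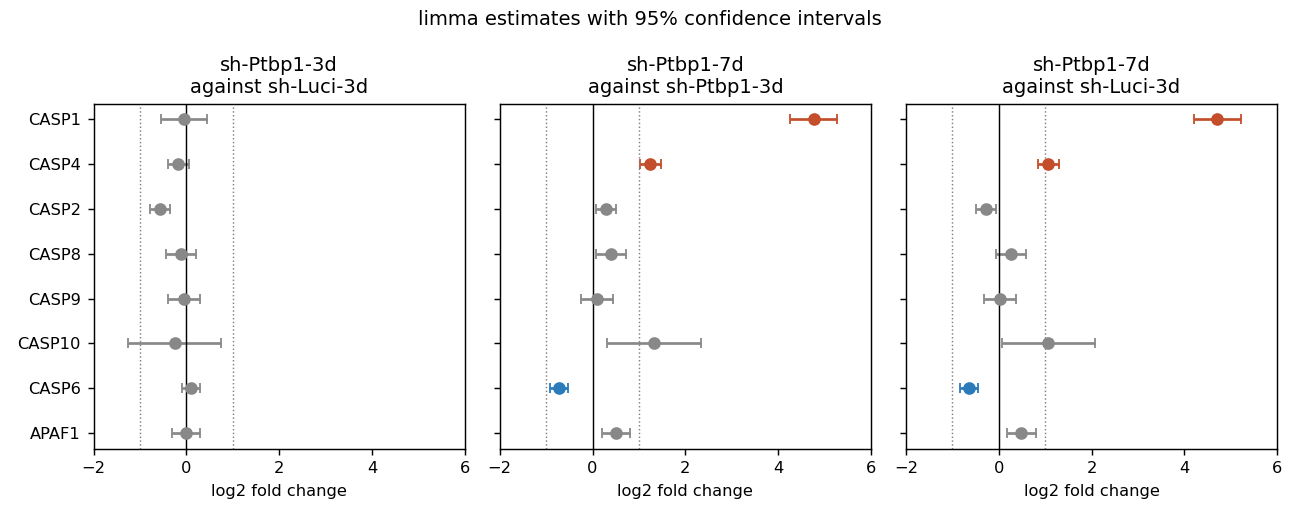
log2 fold change on the log2(FPKM + 0.1) scale (x axis) with 95% confidence intervals from limma for the 8 genes in the 3 comparisons, with dotted lines at a 2-fold change. Red marks called genes, blue a gene past the adjusted p alone and grey the rest, and CASP1 stands at 4.76 and 4.71 in the comparisons with sh-Ptbp1-7d.

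The order of the levels changed with the rise of CASP1. In sh-Luci-3d the order of mean FPKM was CASP4 (16.6), CASP2 (13.5), CASP6 (9.82), CASP8 (5.01), CASP9 (4.19), APAF1 (3.93), CASP1 (0.995) and CASP10 (0.0549). Neighbours overlapped for CASP8 with CASP9 and for CASP9 with APAF1. In sh-Ptbp1-3d CASP6 (10.5) stood above CASP2 (9.13) without overlap, and the same neighbours as before overlapped. In sh-Ptbp1-7d CASP4 (34.8) led CASP1 (27.5) and CASP2 (11.2) without overlap. Below them CASP6 (6.31), CASP8 (6.03), APAF1 (5.58) and CASP9 (4.27) overlapped from neighbour to neighbour, and CASP10 (0.241) was last. Among all features tested, the mean level of CASP1 moved from percentile 24.3 in sh-Luci-3d to percentile 84.1 in sh-Ptbp1-7d, and that of CASP6 from percentile 63.0 to 50.7.

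The FPKM of the 8 genes summed to between 50.4 and 58.0 in sh-Luci-3d, 46.4 and 49.98 in sh-Ptbp1-3d and 93.9 and 98.6 in sh-Ptbp1-7d. CASP1 and CASP4 held from 30.9% to 34.7% of that sum in the 6 libraries of day 3 and from 63.8% to 66.7% in sh-Ptbp1-7d. The 4 initiator caspases together had 22.8 ± 2.09 FPKM (SD, n = 3), 17.7 ± 1.03 and 21.7 ± 0.106 in the 3 groups.

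**Figure D3:**
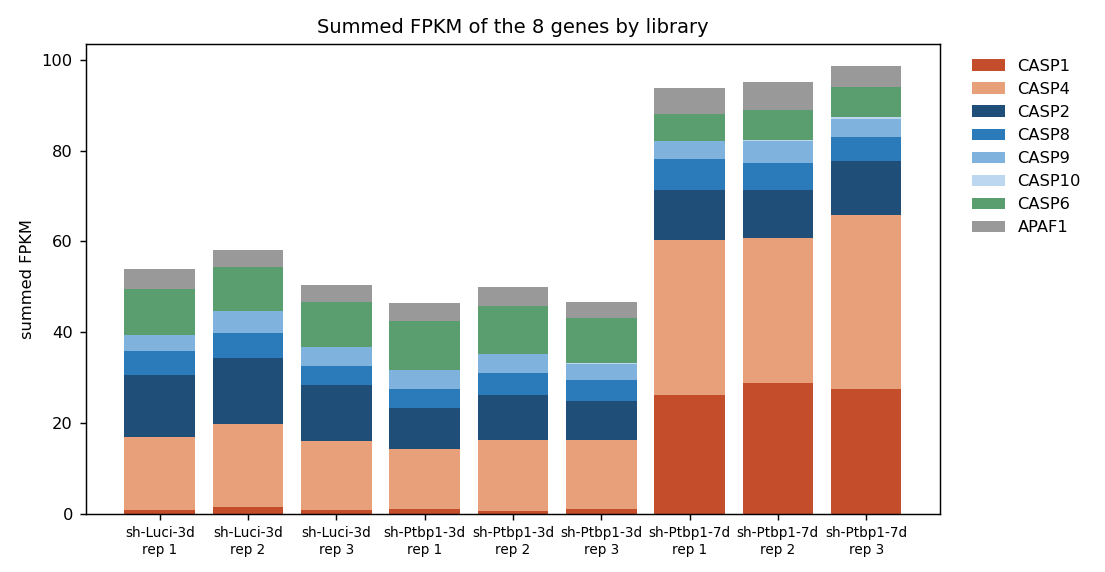
Summed FPKM (y axis, from 0) of the 8 genes in each of the 9 libraries (x axis), with 1 colour for each gene. The sum is between 46.4 and 58.0 in the libraries of day 3 and between 93.9 and 98.6 in those of day 7, where CASP1 and CASP4 fill 63.8% to 66.7% of it.

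An assembled locus upstream of CASP1 was described after its values were seen. It spans chr11:105040350-105045344 on the minus strand (GRCh38), 5100 bases from CASP1, and 1 of its 3 exons, chr11:105044392-105044658, equals an exon of CARD16. CARD16 is a neighbour that encodes a caspase recruitment domain without a protease and has no row of its own symbol in the table. The locus had 0.400, 0.372 and 0.552 FPKM in sh-Luci-3d, against 0.0891, 0.300 and 0.572 FPKM in sh-Ptbp1-3d and 4.58, 4.97 and 4.65 FPKM in sh-Ptbp1-7d. Its sh-Ptbp1-7d libraries were above all others, and it rose by 3.71 on the log2 scale against sh-Ptbp1-3d (SE 0.372, limma adjusted p = 1.53e-05). No other assembled locus lay within 10 kb of the 8 genes. CASP1 shares 180 of its 4123 transcript windows of 50 bases (4.37%) with CARD16. At day 7 the locus stood at 17.2% ± 0.293 (SD, n = 3) of the CASP1 level, and the part of shared reads in the CASP1 value was not tested. CASP4 shares 0.132% of its windows with CASP5. CASP5 was listed at 0 in all libraries but 1, where it had 0.0827 FPKM.

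Inflammasome and pyroptosis genes, the partners of CASP1 and CASP4, did not move as one. Of 17 listed, 15 were in the table under these symbols and 12 were tested. NLRP3 and NLRP1 reached the minimum mean of 0.1 FPKM only through sh-Ptbp1-7d, so like CASP10 they are given as a description only. Between the PTBP1 groups CARD8 was called higher, where 8.31% of all features were, and NLRP3 also lay past both thresholds. Past the adjusted p alone 3 were lower, GSDME, IL18 and NINJ1, beside 15.5% of all features. NLRP3, the sensor of a CASP1 inflammasome, had 0.0126, 0.0214 and 0.0559 FPKM in sh-Luci-3d, against 0.0167, 0.0257 and 0.0357 FPKM in sh-Ptbp1-3d and 0.626, 0.537 and 0.608 FPKM in sh-Ptbp1-7d. Every sh-Ptbp1-7d library was above the other 6, at a level below 1 FPKM. The log2 difference between the PTBP1 groups was 2.45, and 0.63 with a pseudocount of 1. CARD8, another CASP1-activating sensor, had means of 9.57, 8.20 and 17.3 FPKM in the 3 groups and rose by 1.08 between the PTBP1 groups (limma adjusted p = 7.56e-05). Without sh-Ptbp1-3d replicate 3 that value was 0.97, under the 2-fold threshold. Against sh-Luci-3d CARD8 differed by 0.84 (limma adjusted p = 0.000417), also under 2-fold, and was not called.

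PYCARD, the adaptor that links such sensors to CASP1, stayed between 0.0542 and 0.352 FPKM in all 9 libraries. The substrates of the inflammatory caspases went separate ways. GSDMD, whose cleaved form makes pores in the membrane, had means of 41.6, 46.1 and 52.1 FPKM and its log2 difference of 0.17 between the PTBP1 groups did not pass (limma adjusted p = 0.42). IL18 had means of 17.3, 14.7 and 9.45 FPKM and fell by 0.64 (limma adjusted p = 0.00155), while IL1B was at or below 0.291 FPKM in every library. GSDME, the gasdermin cut by executioner caspases, had means of 14.5, 15.8 and 8.59 FPKM and fell by 0.87 (limma adjusted p = 6.67e-05). NLRP1 had means of 0.0412, 0.0966 and 0.217 FPKM and a log2 difference of 1.17 from sh-Luci-3d. It passed both thresholds of that comparison, and no longer did so under 13 of 19 alternatives. At these levels below 1 FPKM, NLRP3 and NLRP1 rest on few reads, and the depth is unknown.

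**Figure D4:**
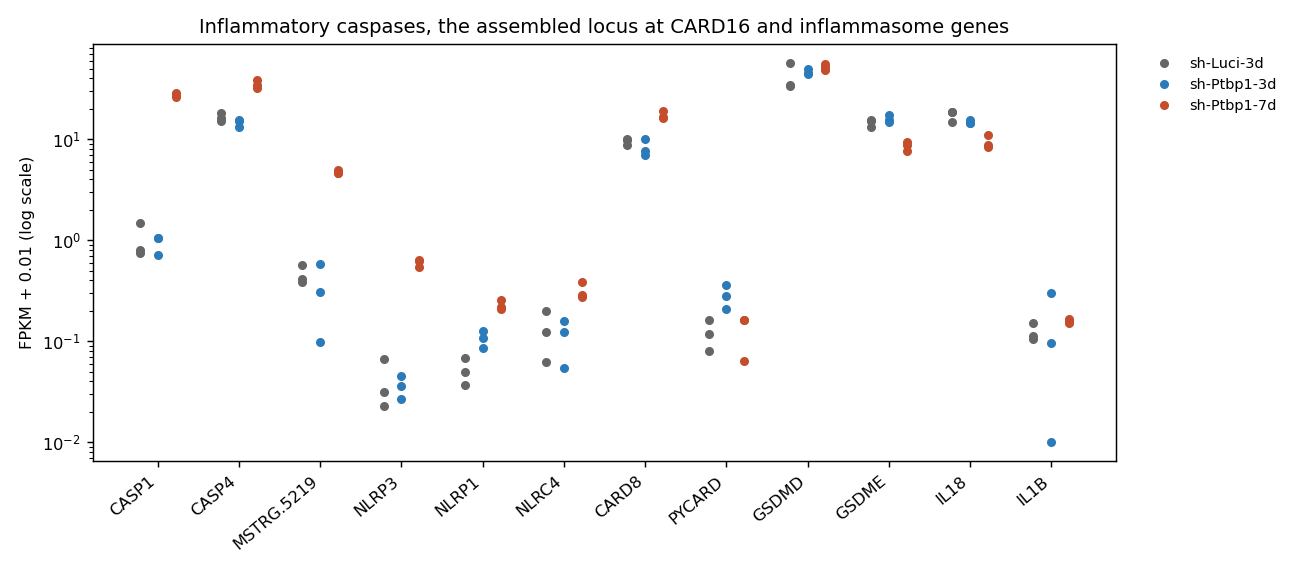
FPKM + 0.01 (y axis, log scale) of CASP1, CASP4, the assembled locus MSTRG.5219 with an exon of CARD16, and 9 inflammasome and pyroptosis genes (x axis), with 1 point for each library. CASP1 and the locus are higher in each sh-Ptbp1-7d library than in any other, PYCARD and IL1B are below 1 FPKM in all, and IL18 and GSDME are lower at day 7.

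Among 9 inhibitors and activators of caspases, all tested, 4 were higher and 1 lower past the adjusted p between the PTBP1 groups. Of all features 20.3% were higher and 15.5% lower past it. BIRC5, the inhibitor survivin that is made in dividing cells, had 36.4, 36.4 and 45.0 FPKM in sh-Luci-3d, against 45.6, 40.9 and 41.2 FPKM in sh-Ptbp1-3d and 17.9, 14.4 and 16.5 FPKM in sh-Ptbp1-7d. It was called, with a fall of 1.39 on the log2 scale (SE 0.109, limma adjusted p = 2.55e-06). The 4 that rose by less than 2-fold were BIRC2, an inhibitor, by 0.60, DIABLO and HTRA2, which relieve such inhibition, by 0.56 and 0.52, and CYCS, the cytochrome c that APAF1 binds, by 0.29 (limma adjusted p from 0.000205 to 0.006). XIAP, the direct inhibitor of CASP9, had a log2 difference of -0.065 (limma adjusted p = 0.698). The largest positive value of this list, 0.68 for BIRC3, did not pass (limma adjusted p = 0.0144).

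Of 11 adaptors and platforms of initiator caspases, 10 were tested. Past the adjusted p between the PTBP1 groups 4 were higher and 2 lower, where 20.3% and 15.5% of all features were. None was called, beside 14.2% of all features. RIPK1, a kinase of death receptor complexes with CASP8, rose by 0.76 (limma adjusted p = 3.11e-05), and CFLAR, the inhibitor of CASP8 at its neighbouring locus, rose by 0.57 (limma adjusted p = 0.00584). DEDD and DEDD2, which carry the death effector domain, rose by 0.34 and 0.63. CRADD, the adaptor of CASP2 in the PIDDosome, fell by 0.81 (limma adjusted p = 0.000454), and MALT1 fell by 0.62. Against sh-Luci-3d the CRADD fall of 1.05 was called (limma adjusted p = 6.97e-05), and 4 of 20 alternatives brought it under 2-fold, with values down to -0.91. Leaving out sh-Luci-3d replicate 3 was among these, and with single libraries left out the value ran from -1.15 to -0.99. FADD, the adaptor of CASP8 and CASP10, had means of 15.1, 16.0 and 15.5 FPKM and a log2 difference of -0.050 (limma adjusted p = 0.649). RIPK3 was listed at 0 in all libraries.

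Of 11 caspase substrates, all tested, 3 passed the adjusted p between the PTBP1 groups, beside 35.8% of all features. Of these, PARP1 and LMNB1 fell by 0.41 and 0.42 and ACIN1 rose by 0.37, each under 2-fold. The largest values that did not pass were -0.50 for BID and 0.53 for DFFB. The median of the 11 substrates was -0.31, beside 0.092 over all features. Over 5 lists, 1 of which is counted but not described here, 44 genes were tested. Between the PTBP1 groups 3 of them were called higher and 1 lower, where 8.31% and 5.90% of all features were. The adjusted p alone was passed by 20, where 35.8% of all features passed it, 20.3% higher and 15.5% lower. Against sh-Luci-3d 3 were called higher and 2 lower, beside 8.93% and 5.68% of all features. NLRP3 is among those higher in both counts, and NLRP1 in the second. Without sh-Ptbp1-3d replicate 1 and without sh-Ptbp1-7d replicate 1 the 20 became 12 and 13, and without the latter the 5 calls against sh-Luci-3d became 3. Between the groups of day 3, 0 were called by limma, 0 passed the adjusted p and 4 of the 44 had an unadjusted p under 0.05, beside 1126 of the 15551 features. Without sh-Luci-3d replicate 3, 4 passed the adjusted p.

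**Figure D5:**
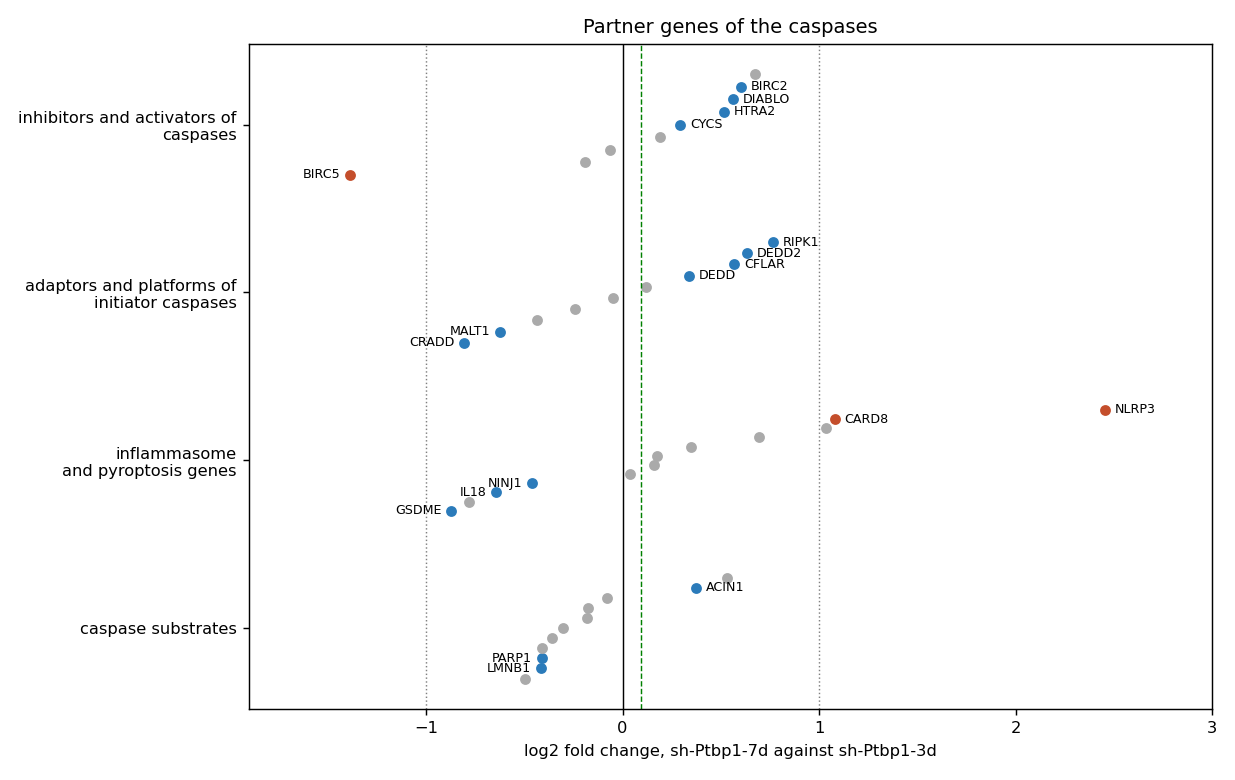
log2 fold change of sh-Ptbp1-7d compared with sh-Ptbp1-3d (x axis) for the 42 tested partner genes in the 4 lists described (y axis), with dotted lines at a 2-fold change and a dashed line at 0.092, the median of all features. Red marks the 3 genes past both thresholds, CARD8, BIRC5 and NLRP3 (tested only through its sh-Ptbp1-7d level), blue the 16 genes past the adjusted p alone and grey the rest.

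Transcripts of the interferon response moved in the same comparisons as CASP1 and CASP4. Of 12 listed genes, 10 were called higher and 0 lower in sh-Ptbp1-7d compared with sh-Ptbp1-3d, where 8.31% and 5.90% of all features were. Their median log2 fold change was 2.02, beside 0.092 over all features. It was -0.036 between the groups of day 3. IRF1, a transcription factor induced by interferon, had means of 9.89, 9.92 and 37.9 FPKM and rose by 1.93 (limma adjusted p = 9.81e-07). Of 12 p53 target genes, 4 were called higher and 1 lower, beside the same shares of all features, with a median of 0.38. CDKN1A, the cell cycle inhibitor p21, had means of 31.2, 35.4 and 77.7 FPKM and rose by 1.13 (limma adjusted p = 9.76e-06). The list was mixed: ZMAT3 fell by 1.28 (limma adjusted p = 8.23e-05), and BAX, BBC3, MDM2, SESN1, RRM2B and TP53I3 did not pass the adjusted p. The part of interferon or p53 signalling in the caspase values was not tested.

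Of 14 immune and blood cell markers, SPI1, TYROBP, AIF1 and CD3E were listed at 0 in all libraries and 12 were under 1 FPKM in every library. The sum of the list ranged from 10.45 to 11.8 FPKM over the 6 libraries of day 3 and from 16.5 to 19.1 FPKM over those of sh-Ptbp1-7d. CD68, a lysosomal protein, made up most of that sum with 15.5 to 17.8 FPKM at day 7, and its part in the rise of CASP1 and CASP4 was not tested. The 8 astroglial and glioma markers summed to between 4468 and 4887 FPKM at day 3 and between 1392 and 1513 FPKM at day 7, most of it VIM. Between the PTBP1 groups 1 of these 8 was called higher and 2 lower, where 8.31% and 5.90% of all features were. The higher one was S100B, by 2.08 on the log2 scale (limma adjusted p = 0.00202), at a level below 1 FPKM. GFAP, NES, SOX2 and SOX9 did not pass the adjusted p. The 8 neuronal markers summed to between 265 and 358 FPKM at day 3 and between 158 and 165 FPKM at day 7, most of it TUBB3, with means of 261, 317 and 118 FPKM in the 3 groups. Between the PTBP1 groups, 0 of 7 tested were called higher and 1, TUBB3, lower, where 8.31% and 5.90% of all features were. Their median log2 fold change was -1.14, that of ELAVL3, beside 0.092 over all features. ELAVL3, DCX and STMN2 were lower without passing, and their sh-Ptbp1-3d means came mostly from replicate 3. MAP2 went the other way, by 0.94 on the log2 scale (limma adjusted p = 0.00058), under 2-fold and not called. SNAP25 rose by 1.69 against sh-Luci-3d (limma adjusted p = 9.16e-05). Between the PTBP1 groups SNAP25 differed by 0.72 and did not pass (limma adjusted p = 0.0177). In bulk RNA, a change in the share of cells that express a gene and a change in RNA per cell cannot be told apart.

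The genes with the pattern most like each member were taken by Pearson's r of log2(FPKM + 0.1) over the 9 libraries, among the 11340 genes whose mean reached 1 FPKM. These libraries share the large difference of day 7, so high r values are a description without a test. For CASP1 they were SLITRK5 (0.997), BTN3A1 (0.997) and TMEM140 (0.996), and for CASP4 TMEM50A (0.995), DNAJC12 (0.992) and TLR3 (0.991). For CASP6 they were ATP5PB (0.996), ITGBL1 (0.994) and PBK (0.993), and for APAF1 ZNF613 (0.988), TENT4A (0.987) and CNR1 (0.984). CASP8 was most like ARHGAP5 (0.976), ZFP30 (0.956) and RNF19A (0.954), and CASP2 most like ACSS3 (0.964) and CTSK (0.932). CASP10 was nearest to ATG5 (0.946), C11orf49 (0.945) and RPA2 (0.939). The weakest likeness was that of CASP9, with ZC3HC1 (0.869), HSCB (0.863) and CLCN2 (0.832).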

How the data were processed

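The 9 RNA-seq libraries of U251 cells were grouped by the labels. The deposited expression table holds FPKM, computed by the authors for each gene in each library. A second deposited table gives positions of assembled loci (values of another kind) and was used to place a locus near CASP1 and to compare builds. HISAT2 and GRCh38 are named in the submitters' processing notes. Versions, counting program and strand setting are not given in the sources used here. Low FPKM values did not fall on steps of whole reads, so depth is unknown, no counting interval can be given and count models were not used. A sample column was left unused in 0 cases.

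From these values log2(FPKM + 0.1) was fitted in R 4.3.3 by limma 3.58.1, whose prior variance followed the mean level. The thresholds were those of the study, whose RNA-seq methods name no test for them, and the stricter one, set for the PTBP1 groups, was also used against sh-Luci-3d. The pseudocount shrinks fold changes of weakly expressed genes. Positions and exon overlaps came from GENCODE v29, with which 49.6% of 43315 assembled exons matched at both ends, and promoters from RefSeq on GRCh38.p14. Figures were drawn with matplotlib 3.10.9. The fit was tested on simulated data.

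The members and lists were chosen with earlier results of these data known. Named were the 8 members, PTBP1, partners called or with the largest rise or fall of their list, the 3 genes most like each member, and IRF1 and CDKN1A. Some of the genes this rule names are not reported here. Other partners and markers, ANKS1B, MCUB and the assembled locus were named after their values were seen. A search of protein sequences was not run. Alternatives were pseudocounts of 0.01 and 1, median-ratio scaling, quantile normalization, TPM, no filter, a filter at a mean of 1 FPKM, no trend, the compared groups alone, no assembled loci, the replicate number as a block, and each library left out in turn. For the assembled locus these were added after seeing the data.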

Additional observations from a re-analysis of the deposited data

How the results depend on the processing

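Each comparison was recomputed under 20 alternatives. Between the PTBP1 groups, CASP1 and CASP4 were called under all of them, with log2 fold changes from 3.89 to 4.95 and from 1.17 to 1.34. CASP6 ranged from -0.84 to -0.63 and passed the adjusted p each time. Members past the adjusted p alone numbered 5 with TPM, which added CASP2 and APAF1. Against sh-Luci-3d, 1 member was called with median-ratio scaling, and between 1 and 2 when single libraries were left out. The partner genes called there were 2 with a pseudocount of 1, 3 with a mean of at least 1 FPKM, which removes NLRP1 and NLRP3, and 3 to 5 when single libraries were left out. Between the groups of day 3, leaving out libraries gave 0 to 1 members and 0 to 4 partner genes past the adjusted p alone. Between the PTBP1 groups it gave 12 to 24 partner genes.

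Signs turned only for genes within their error. CASP9 was -0.058 with quantile normalization between the PTBP1 groups, and -0.041 with median-ratio scaling and -0.13 with quantile normalization against sh-Luci-3d. With single libraries left out, its log2 difference ran from -0.20 to 0.054, -0.012 to 0.15 and -0.11 to 0.14 in the 3 comparisons. Between the groups of day 3 the range was -0.21 to 0.23 for CASP1, -0.42 to 0.048 for CASP10 and -0.069 to 0.061 for APAF1. The cause was not tested. CASP10 could not be tested with a mean of at least 1 FPKM.

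Same-numbered libraries of different groups had deviations that correlated between -0.032 and 0.051, beside -0.073 to 0.061 for libraries of different number. No pairing by number was seen, and deviations from means of 3 libraries cannot exclude a weak one. With the replicate number as a block the members called were 0, 2 and 2 in the 3 comparisons, and CASP1 kept 4.76 against sh-Ptbp1-3d. APAF1 then passed the adjusted p in both comparisons with sh-Ptbp1-7d (0.00604 and 0.00699, limma).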
